A study of Mus musculus with 6 samples.

Results

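The 10 genes described here encode GTPases that interferon gamma induces: 6 guanylate binding proteins (Gbp2, Gbp3, Gbp4, Gbp5, Gbp7 and Gbp9) and 4 immunity-related GTPases (Igtp, Irgm1, Irgm2 and Iigp1). They were chosen by name, as rows of a deposited count table with 45808 gene symbols, and all 10 were found. RNA came from T cells purified from the spleen of C57BL/6 mice aged 2 months, stimulated in culture with anti-CD3 and anti-CD28 antibodies plus IL-2. There were 3 wild-type libraries and 3 Drp1-/- (KO) libraries, and both groups had the same stimulation. Drp1, encoded by Dnm1l, is the dynamin-related GTPase that divides mitochondria; how and in which cells it was deleted is not stated. Nor is it stated whether replicates came from separate animals, so the p-values reflect the spread between libraries alone, which may be technical.

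Interferon gamma is a cytokine of activated T cells and NK cells. It binds a receptor of 2 chains, Ifngr1 and Ifngr2, and the kinases Jak1 and Jak2 carry the signal on. Target genes respond through GAS elements and through Irf1, an induced factor that binds interferon-stimulated response elements (ISRE), while Socs1 inhibits the kinases. Guanylate binding proteins are large GTPases of the dynamin superfamily, to which Drp1 also belongs, and coat the vacuoles of intracellular microbes. Among immunity-related GTPases, the Irgm proteins (Irgm1, Irgm2 and Igtp, also called Irgm3) sit on host membranes and keep effector GTPases such as Iigp1 inactive there. Irgm1 is also known for protecting T cells from death driven by interferon gamma.

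Sequence upstream of the start was available for 7 of the 10 genes, from RefSeq on build GRCm38.p6. None was available for Gbp4, Gbp9 and Iigp1, so the largest rise and the largest fall among the members were not searched. The sequence is shown because, among the 7 searched, genes that rose (Gbp7, Gbp3), fell (only Gbp2) or did not pass carry the same response element. The ISRE core was searched as GAAANNGAAA on both strands in the 250 bases before each start, and the GAS element as TTCNNNGAA, which reads the same on both strands. The last 170 of those bases are printed 5′ to 3′ on the gene's strand, with every ISRE core match in capitals.
Gbp7 (chr3:142530166-142530335, plus strand): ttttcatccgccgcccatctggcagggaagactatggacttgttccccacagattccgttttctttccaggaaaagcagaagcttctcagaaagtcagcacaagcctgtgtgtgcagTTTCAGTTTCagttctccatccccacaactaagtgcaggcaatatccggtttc
Gbp3 (chr3:142559874-142560043, plus strand): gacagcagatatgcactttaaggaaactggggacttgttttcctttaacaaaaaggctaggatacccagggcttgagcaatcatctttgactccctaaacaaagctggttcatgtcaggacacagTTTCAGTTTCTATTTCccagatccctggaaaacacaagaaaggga
Gbp5 (chr3:142496764-142496933, plus strand): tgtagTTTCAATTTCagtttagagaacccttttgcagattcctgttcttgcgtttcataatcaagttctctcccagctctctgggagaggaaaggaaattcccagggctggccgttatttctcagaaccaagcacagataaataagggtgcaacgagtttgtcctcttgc
Gbp2 (chr3:142620493-142620662, plus strand): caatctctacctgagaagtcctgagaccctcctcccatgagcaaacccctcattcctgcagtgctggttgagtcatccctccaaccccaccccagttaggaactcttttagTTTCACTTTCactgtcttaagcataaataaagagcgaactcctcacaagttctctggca
Irgm1 (chr11:48871421-48871590, minus strand): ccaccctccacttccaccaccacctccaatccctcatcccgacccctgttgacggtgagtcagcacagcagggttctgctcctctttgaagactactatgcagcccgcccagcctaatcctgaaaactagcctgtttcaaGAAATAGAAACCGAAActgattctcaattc
Igtp (chr11:58199386-58199555, plus strand): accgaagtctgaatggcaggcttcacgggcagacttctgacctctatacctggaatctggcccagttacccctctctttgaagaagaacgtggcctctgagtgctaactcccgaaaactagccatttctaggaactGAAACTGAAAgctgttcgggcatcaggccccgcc
Irgm2 (chr11:58214807-58214976, plus strand): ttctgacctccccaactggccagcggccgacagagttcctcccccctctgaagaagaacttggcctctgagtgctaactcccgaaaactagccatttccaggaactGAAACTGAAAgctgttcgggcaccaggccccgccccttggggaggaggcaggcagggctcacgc

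The ISRE core was found upstream of 7 of 7 genes, in 7 of their 8 windows, and in 2.98% of 32851 promoter windows of the same length. GAS matches lay upstream of 4 of these genes (Gbp5, Gbp7, Igtp and Irgm2), in 4 of the 8 windows, against 7.02% of all windows. Gbp3 and Irgm1 each held a pair of overlapping ISRE matches, and a second RefSeq start of Gbp3 had no match. In Igtp the ISRE match ran from base -34 to -25 and a GAS match, TTCTAGGAA, ended 2 bases before the ISRE, at base -37. Irgm2 had the same arrangement from base -75 to -55. Bases after the Irgm2 start, and after the second Gbp3 start, were not found in an annotated transcript of the gene. Those after the other starts were found, so the Irgm2 positions rest on the RefSeq start alone. The printed Igtp and Irgm2 windows were identical at 77.1% of 140 bases when aligned without gaps. A match is a description of the letters and not evidence of binding. The genes were chosen as ones that interferon gamma induces, so these shares are description only.

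**Figure D1:**
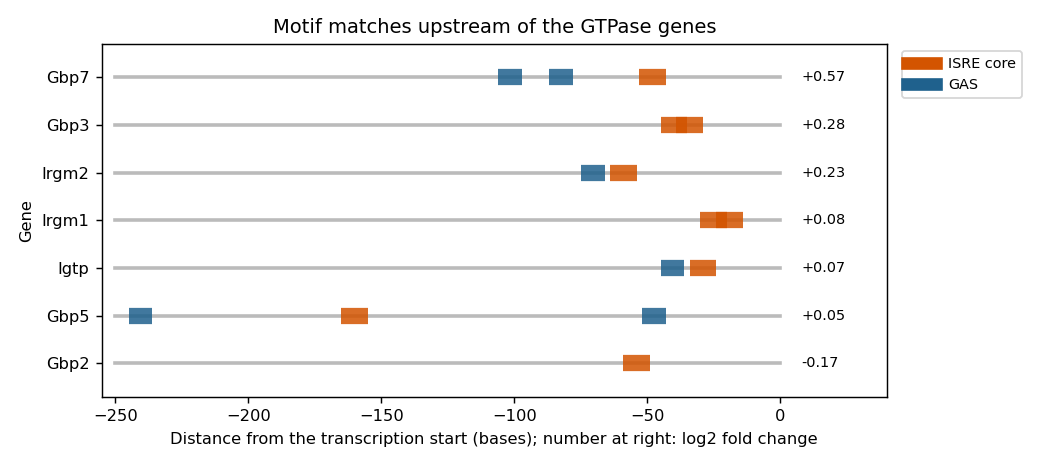
Matches to the ISRE core (orange) and the GAS element (blue) in the 250 bases before the transcription start of 7 genes (y axis), against distance from the start in bases (x axis); the number at the right is the log2 fold change, KO over wild type. Every gene shown has an ISRE core match, and the fold changes beside them run from -0.17 for Gbp2 to 0.57 for Gbp7.

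Total counts per library ran from 24738017 to 34730475, and every member had at least 116 counts in each. T cell markers were the most abundant of the marker lists, summing to 4950 to 5100 CPM in wild type against 4240 to 4340 in KO, where CPM stands for counts-per-million of the TMM-adjusted library size. The 13 macrophage and monocyte markers summed to 28.5 to 31.9 CPM in wild type against 22.3 to 25.4 in KO. Most of that was Cd68 (577 to 826 counts per library, log2 -0.39 ± 0.07, lower in KO), while Itgam was also lower (log2 -0.44 ± 0.14) and Lyz2 higher (log2 1.36 ± 0.35, 4 to 20 counts per library). Fcgr1, C1qa and C1qb of that list were at 0 in all libraries, as were S100a8, S100a9, Elane and Retnlg among 8 neutrophil markers. Summed B cell markers stood at 198 to 231 and 215 to 231 CPM in wild type and KO, NK cell markers at 23.3 to 29.3 and 40.7 to 47.8 CPM, gamma-delta T cell markers at 44.2 to 50.4 and 102 to 122 CPM, and platelet markers at 7.58 to 9.66 and 20.0 to 23.0 CPM. Most of the NK cell sum was Eomes, with means of 18.5 CPM in wild type and 32.8 in KO. Of 5 NK cell markers tested, 3 rose (Eomes, and Ncr1 and Klrb1c at no more than 2.38 CPM) and 2 did not pass. Among all tested genes 26.7% were higher. Xist, the RNA of the inactive X chromosome, had 0 to 3 counts per wild-type library and 12950 to 16862 per KO library, while 4 of 4 Y-linked genes were read in all libraries and were lower in KO (log2 -0.45 to -0.88). Genotype and this difference in sex-linked transcripts cannot be told apart, and the part of cell makeup in the results below was not tested. In these bulk samples fewer cells of a type and less RNA per cell cannot be told apart.

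KO cultures held far more Ifng mRNA than wild type, while the summed level of the GTPase mRNAs differed far less. Ifng (chromosome 10, 118441046 to 118445892) was read at 64.3, 121.0 and 126.4 CPM in wild-type replicates 1, 2 and 3 and at 420.4, 541.8 and 458.2 CPM in KO replicates 1, 2 and 3. Every KO library lay above every wild-type library, with a 4.54-fold rise (log2 2.18 ± 0.21 SE, adjusted p = 4.79e-05, edgeR quasi-likelihood F, Benjamini-Hochberg adjusted). The 10 GTPase genes together summed to 611.8, 618.7 and 636.1 CPM in wild type and 615.8, 616.5 and 620.8 CPM in KO. Their summed means were 622.2 ± 12.6 and 617.7 ± 2.71 CPM (SD, n = 3 each), a ratio of 0.993, and the groups overlapped. This total joins 2 families whose sums lay apart in opposite directions. The 6 guanylate binding protein genes summed to 384.3, 368.3 and 386.3 CPM in wild type and 359.3, 344.7 and 352.1 CPM in KO, with every KO library below every wild-type library (ratio of means 0.927). The 4 immunity-related GTPase genes summed to 227.5, 250.4 and 249.9 CPM in wild type and 256.5, 271.8 and 268.7 CPM in KO, with every KO library above (ratio 1.10). These sums are descriptions and were not tested. With library totals alone as the scaling, the ratios were 0.977, with overlapping groups, for the guanylate binding proteins, 1.15 for the immunity-related GTPases, and 1.05, with every KO library above, for all 10 genes. Per CPM of Ifng, the wild-type libraries held 9.52, 5.11 and 5.03 CPM of these GTPases and the KO libraries 1.46, 1.14 and 1.35 CPM.

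**Figure D2:**
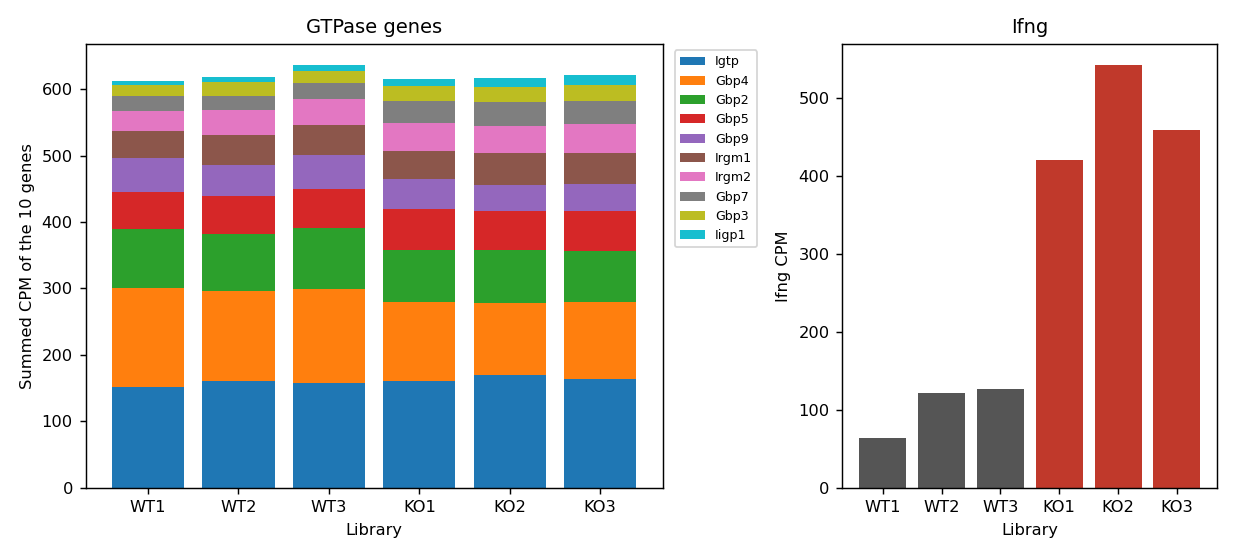
CPM of the 10 GTPase genes stacked by gene (left) and CPM of Ifng (right) in each library (x axis; WT, wild type, with replicate number). The summed GTPase level lies between 611.8 and 636.1 CPM in all 6 libraries, while Ifng runs from 64.3 to 541.8 CPM.

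Within that sum, single genes moved both ways. Of the 10 members, all of which passed the expression filter, 3 rose (Iigp1, Gbp7 and Gbp3), 3 fell (Gbp4, Gbp9 and Gbp2) and 4 did not pass (Irgm2, Irgm1, Igtp and Gbp5), at an adjusted p under 0.05 in edgeR. Over all 14209 genes tested, 52.9% passed, 26.7% higher and 26.1% lower, so the members' counts in either direction are near the background. Their median log2 fold change was 0.08, against 0.01 for all tested genes. With library totals alone as the scaling, which raised the share of higher calls over all genes from 50.6% to 62.0%, 5 members were higher and 1 lower. The range of change among them, from log2 -0.31 to 0.90, lay below the rise of Ifng throughout.

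**Figure D3:**
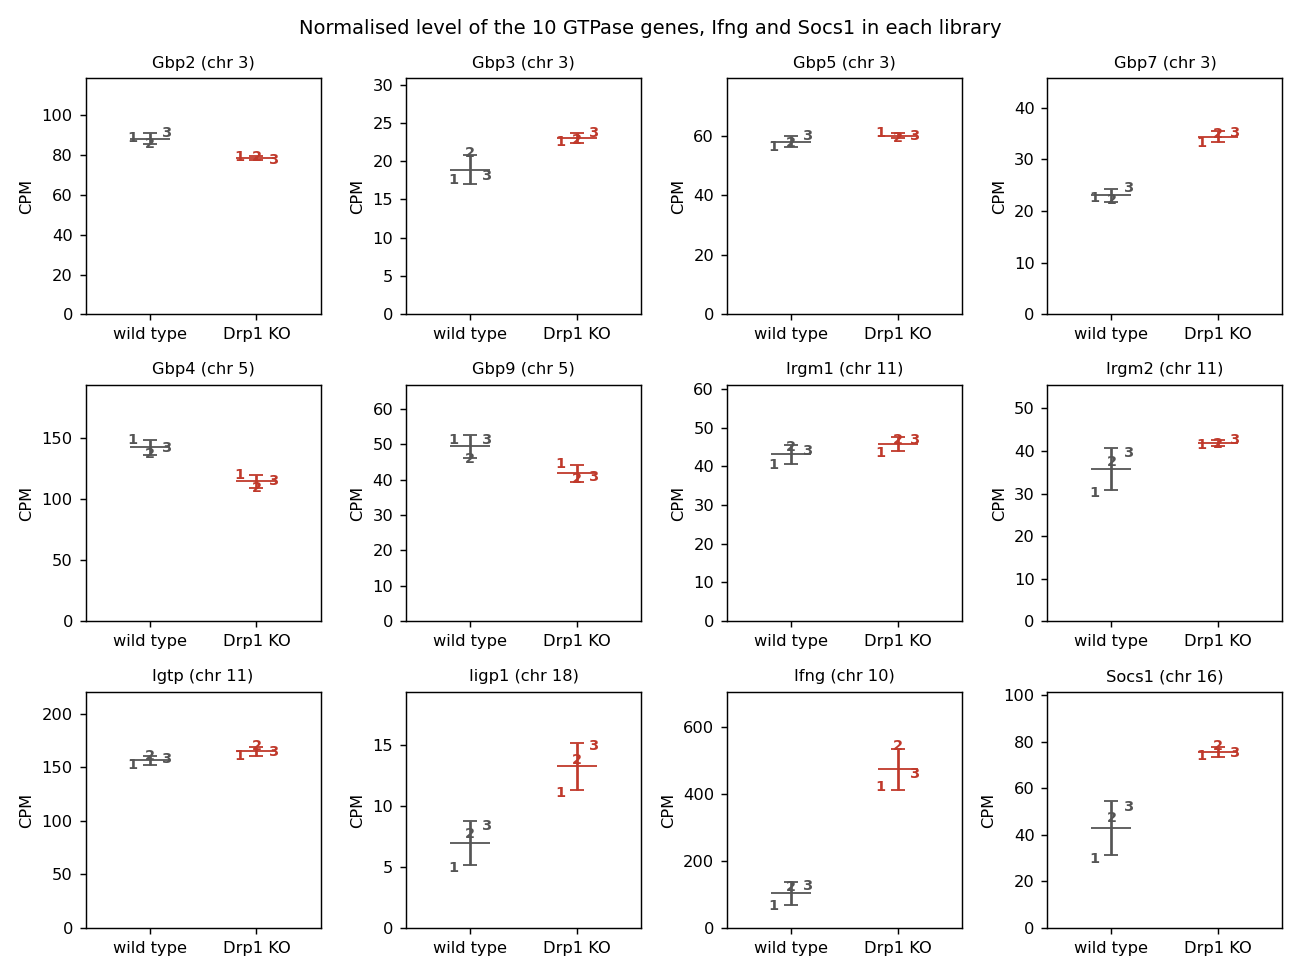
CPM (y axis, from 0) of the 10 GTPase genes, Ifng and Socs1 by genotype (x axis); digits are replicates, and each bar marks a mean with its SD (n = 3). Iigp1, Gbp7, Gbp3, Irgm2 and Igtp sit higher in all KO libraries, Irgm2 and Igtp without passing the test. Gbp2, Gbp4 and Gbp9 sit lower in all KO libraries, and Gbp5 and Irgm1 overlap. The share of all tested genes whose groups do not overlap was not computed.

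The effector Iigp1, also called Irga6, a GTPase that loads onto vacuoles of intracellular parasites, had the largest rise of the members. It lies on chromosome 18 (60376027 to 60392634, GENCODE M21 on mm10, as for all positions of genes here). Its level was 4.94, 7.65 and 8.31 CPM in wild-type replicates 1, 2 and 3 and 11.1, 13.7 and 14.9 CPM in the KO replicates. All KO libraries lay above all wild-type libraries, and wild-type replicate 1, the library with the least Ifng, was lowest. The log2 fold change was 0.90 ± 0.17 (SE), a 1.87-fold rise with an adjusted p of 0.00145 by edgeR, and 0.72 ± 0.11 without wild-type replicate 1. This member was also the least abundant, so its change added little to the summed level.

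The Irgm group lies on chromosome 11, and none of its 3 genes passed. Irgm2 (58199618 to 58222782) was at 30.1, 37.4 and 39.7 CPM in wild type and 41.4, 41.7 and 42.7 CPM in KO. Its groups did not overlap, and its log2 fold change of 0.23 ± 0.09 just missed the threshold (adjusted p = 0.0507, edgeR quasi-likelihood). That call depended on the settings: Irgm2 passed in 7 of 14 alternatives, and its fold change fell to 0.12 (log2) without wild-type replicate 1. Igtp (58199556 to 58207591), the most abundant member, stood at 152.0, 160.3 and 157.8 CPM in wild type and 160.4, 169.4 and 164.4 CPM in KO. Its lowest KO value lay just above the highest wild-type value, and a log2 fold change of 0.07 with a 95% interval of -0.03 to 0.17 did not pass (adjusted p = 0.218, edgeR). Irgm1 (48861968 to 48871683) had 40.5, 45.1 and 44.1 CPM in wild type and 43.6, 46.9 and 46.8 CPM in KO, with overlapping groups. Its interval of -0.05 to 0.22 (log2) includes 0 and lies far under the rise of Ifng. Annotated exons of Igtp and Irgm2 share 162 bases on the same strand, 8.01% of Igtp and 4.39% of Irgm2, so some of their reads may not be separable.

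On chromosome 3 the Gbp genes of 1 cluster moved in opposite directions. Gbp7 (142530342 to 142550149) was read at 22.6, 22.2 and 24.5 CPM in wild type and 33.2, 34.9 and 35.1 CPM in KO. The groups were well apart, with a log2 fold change of 0.57 ± 0.06, 48.9% higher (adjusted p = 8.63e-05, edgeR quasi-likelihood), which kept its call in all 14 alternatives run. An annotated pseudogene shares 11.3% of the Gbp7 exon bases. Gbp3 (142560026 to 142573209) went from 17.5, 21.04 and 18.1 CPM to 22.5, 22.8 and 23.7 CPM, without overlap. That rise of 21.8% (log2 0.28 ± 0.08, adjusted p = 0.0114, edgeR) no longer passed without KO replicate 3 (adjusted p = 0.0506).

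Gbp5 and Gbp2 lie beside these genes, and neither was called higher. Gbp5 (142493978 to 142522344), a GTPase linked to inflammasome activation, overlapped between groups, at 56.2, 57.7 and 60.0 CPM in wild type against 61.0, 59.1 and 60.1 CPM in KO. Its log2 fold change of 0.05 had a 95% interval of -0.06 to 0.16 (adjusted p = 0.425, edgeR). Gbp2 (142620602 to 142638008), which restricts intracellular bacteria and parasites, fell slightly, from 88.4, 85.4 and 91.2 CPM to 78.9, 79.3 and 77.6 CPM. All KO libraries were below all wild-type libraries, and the fall was 11.0% (log2 -0.17 ± 0.05, adjusted p = 0.0137, edgeR). It did not pass without wild-type replicate 3 (adjusted p = 0.0501), without KO replicate 3 (0.0599) or when scaled by library totals only (log2 -0.09, adjusted p = 0.144, edgeR).

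Both members of the Gbp cluster on chromosome 5 fell. Gbp4 (105115767 to 105139586) was at 148.4, 136.3 and 141.3 CPM in wild type and 119.3, 108.5 and 115.0 CPM in KO. The groups did not overlap, and the fall of 19.5% (log2 -0.31 ± 0.05, adjusted p = 0.000915, edgeR) held its call in all 14 alternatives. Gbp9 (105077630 to 105139539) fell by 0.24 ± 0.07 on the log2 scale, from 51.1, 45.7 and 51.3 CPM to 44.4, 40.1 and 40.7 CPM (adjusted p = 0.0110, edgeR). Without KO replicate 2 its adjusted p was 0.0528 and with library totals alone 0.0570. These genes and Gbp8 overlap on 1 strand in the annotation, and exons of Gbp4 and Gbp9 share 60 bases. Whether similar sequence elsewhere in these genes led to shared reads was not tested. Gbp8, not a member, fell as well (log2 -0.45 ± 0.06). With Gbp6, Gbp10 and Gbp11, which did not pass, the chromosome 5 cluster had 0 of 6 tested genes higher and 3 lower.

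Levels between genes were compared per kb of merged exon. In wild type Igtp led at 77.5 ± 2.1 CPM per kb (SD, n = 3), followed by Gbp2 at 35.1 ± 1.2 and Gbp4 at 18.9 ± 0.8 CPM per kb. Irgm2 (9.68 CPM per kb), Gbp9 (9.54) and Gbp5 (8.74) came next, and each overlapped its neighbour in this order. Irgm1 (7.44), Gbp3 (5.78), Gbp7 (4.11) and Iigp1 (1.20 CPM per kb) followed without overlap. KO libraries kept the first 4 places and the last 4, while Gbp5 stood above Gbp9 there, at 9.05 and 8.07 CPM per kb, and Gbp9 overlapped Irgm1 (7.88). The order depends on the length used: per kb of the longest transcript, Gbp4 was at 31.3, Gbp5 at 15.4 and Irgm1 at 11.3 in wild type.

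Other genes of both families were called about as often as genes in general, with more of them higher than lower. Of 18, 14 could be tested, and 6 of these rose, 2 fell and 6 did not pass, with a median log2 fold change of 0.15. For comparison, 52.9% of all tested genes were called, 26.7% higher and 26.1% lower. Gm12250, which encodes the effector Irgb10, rose from 4.81, 9.23 and 9.30 CPM to 15.5, 19.9 and 18.5 CPM (log2 1.18 ± 0.19). Tgtp1 (log2 0.75 ± 0.18) and Tgtp2 (log2 0.93 ± 0.15), near-identical copies whose reads may be shared, encode another effector and rose too. Gvin1, a very large interferon-inducible GTPase (log2 0.93 ± 0.19), Gm4070 (log2 1.10 ± 0.27) and Gm4951 (log2 1.16 ± 0.28), all at no more than 1.04 CPM in wild type, completed the rises. Irgq (log2 -0.31 ± 0.08) and Gbp8 fell, and Ifi47, an effector at 41.0 CPM in wild type, had a log2 fold change of 0.10 ± 0.07 that did not pass. Gbp2b had 0 to 10 counts per library and was not tested.

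Split at 25 CPM in wild type, a limit chosen after the values were seen, 9 of 14 tested genes of both families below it rose and 1 fell, while 0 of 10 above it rose and 4 fell. Over all tested genes, 26.7% of those below 25 CPM were higher and 15.5% lower, and 26.8% of those above it were higher and 37.3% lower. The genes that rose spanned 0.678 to 23.1 CPM in wild type and those that fell 22.7 to 142.0 CPM. The lowest of the genes that rose had few counts, with 13 to 60 per library for Gm4070 and 16 to 60 for Gm4951, and the part of low counts in this split was not tested.

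**Figure D4:**
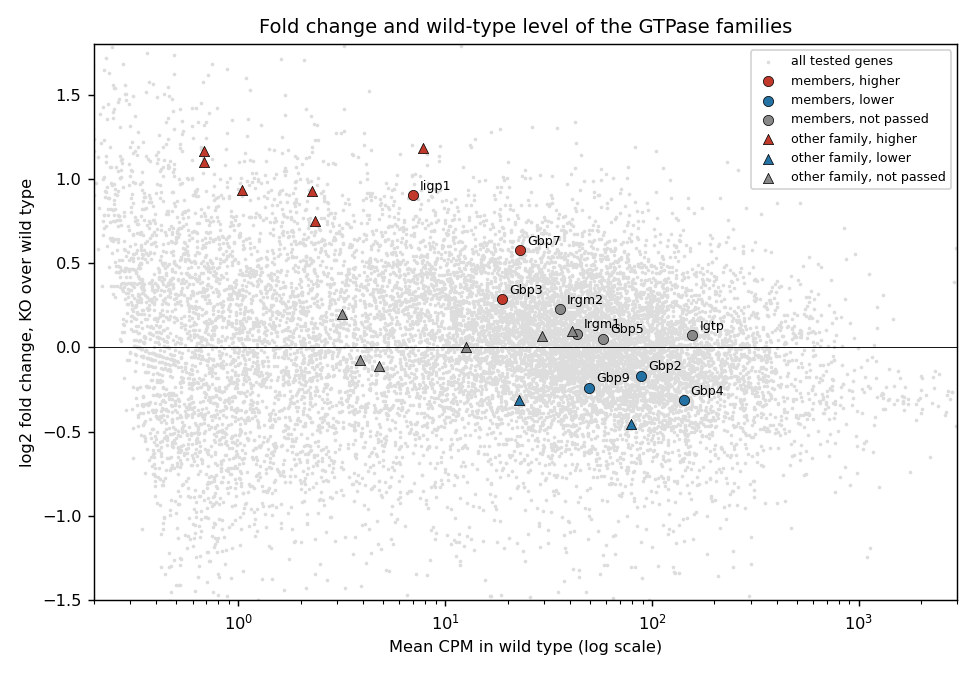
Log2 fold change, KO over wild type (y axis), against mean CPM in wild type (x axis, log scale) for the 10 members (circles, named), other family genes (triangles) and all tested genes (grey; those outside the plotted range are left out). Genes of both families that rose lie at 23.1 CPM or less, and those that fell at 22.7 CPM or more.

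Upstream of the GTPases, most signalling genes that passed the test fell. Of 16 tested genes for interferon gamma, its receptor, kinases, transcription factors and inhibitors, 2 rose (Ifng and Socs1), 9 fell and 5 did not pass, with a median log2 fold change of -0.22, and 26.1% of all tested genes fell. The receptor chain Ifngr2 fell from 38.4, 32.3 and 32.4 CPM to 22.6, 22.4 and 23.6 CPM (log2 -0.59 ± 0.08, adjusted p = 0.000195, edgeR), and all KO libraries were below all wild-type libraries. Ifngr1, the ligand-binding chain, had a log2 fold change of -0.09 ± 0.04 that did not pass. Jak2 (log2 -0.36 ± 0.06) and Jak1 (log2 -0.24 ± 0.05) fell. The transcription factor Irf1 fell from 138.5, 123.9 and 124.2 CPM to 98.9, 96.1 and 94.2 CPM (log2 -0.42 ± 0.06, adjusted p = 0.000232, edgeR), and Irf2, which competes for the same elements, fell by 0.51 ± 0.06 on the log2 scale.

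Socs1, an interferon-induced inhibitor of the kinases, was the 1 regulator of this list that rose. It went from 29.8, 47.2 and 52.0 CPM to 73.9, 78.0 and 75.3 CPM (log2 0.81 ± 0.15, adjusted p = 0.00148, edgeR). Other inhibitors of the list fell: Ptpn2 (log2 -0.21 ± 0.07), Ptpn6 (log2 -0.28 ± 0.04) and Pias1 (log2 -0.31 ± 0.06). Stat3 fell too (log2 -0.39 ± 0.06), and Socs3 (log2 -0.14 ± 0.07) did not pass. Wild-type replicate 1, lowest for Ifng, was lowest for Socs1 as well. Among the members that library was lowest for 6 of 10 (Gbp3, Gbp5 and all 4 immunity-related GTPases), and wild-type replicate 2 was lowest for the other 4. The share of all tested genes for which each library was lowest was not computed. Wild-type replicate 1 also differed most from the other wild-type libraries over all genes (chi-square per gene 11.2 and 12.5, against 2.43 between replicates 2 and 3). A link of these low values to Ifng was not tested.

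**Figure D5:**
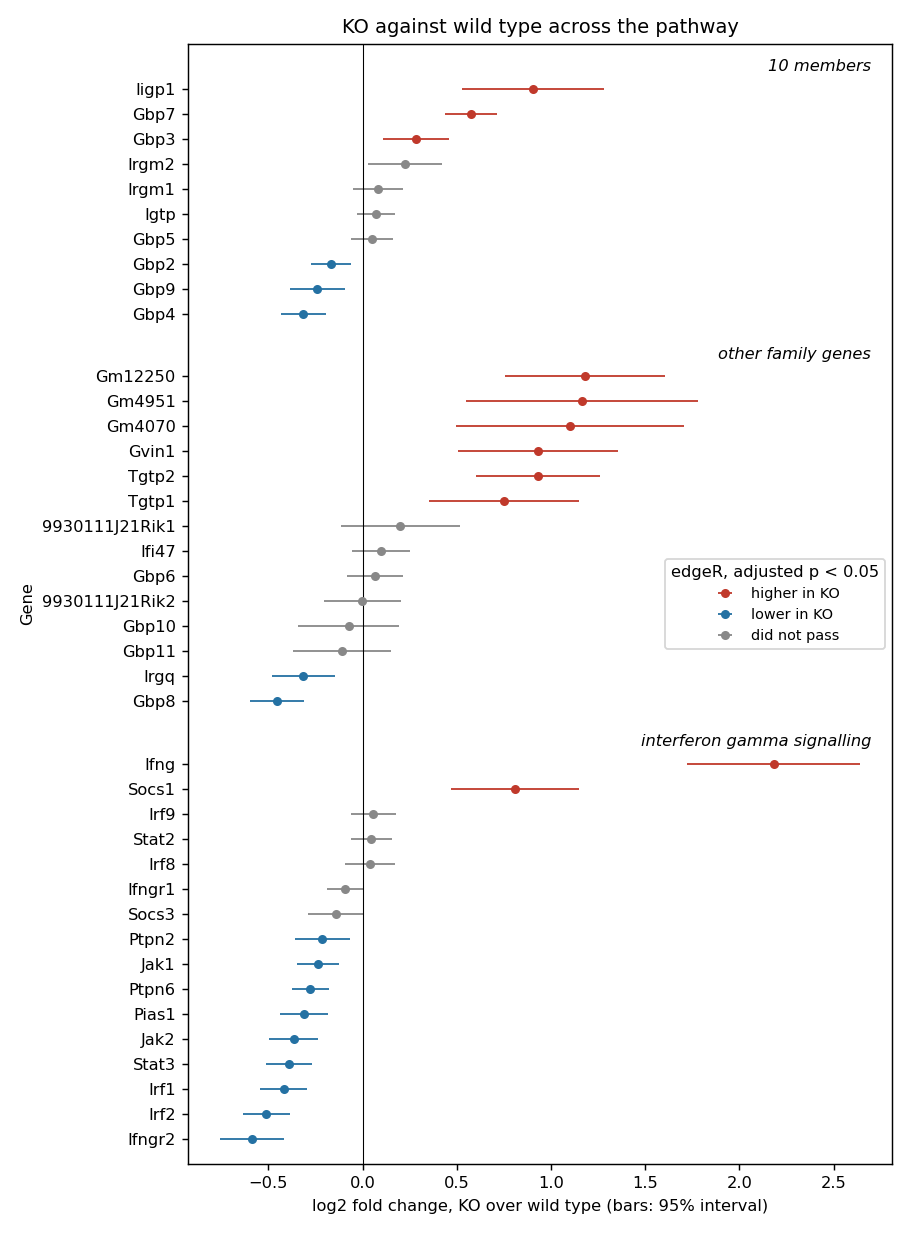
Log2 fold change, KO over wild type, with its 95% interval (x axis), for the 10 members, other tested family genes and tested genes of interferon gamma signalling (y axis); colour gives the edgeR call. Ifng, at 2.18, lies beyond every GTPase gene, and Ifngr2, at -0.59, is the lowest of those shown.

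Other targets of interferon gamma were called in either direction at shares not far from the background. Among the 22 that were tested, 7 were higher, 8 lower and 7 not past the threshold, beside 26.7% higher and 26.1% lower over all genes (median log2 0.02), with Serpina3g, a serpin (log2 1.79 ± 0.14), and Xaf1 (log2 1.70 ± 0.15) rising and Nos2, the inducible nitric oxide synthase (log2 -1.47 ± 0.13), falling. In a type I interferon response list, 21 of 26 tested genes rose and 2 fell (median log2 0.60), with the largest changes in Ifi44 (0 to 3 counts per wild-type library and 11 to 14 per KO library), Oasl2 (log2 2.03 ± 0.24) and Cmpk2 (log2 1.57 ± 0.20). Whether this list and the GTPases differ was not tested. Among 19 tested partners of the GTPases in autophagy and inflammasomes, 3 rose, 8 fell and 8 did not pass (median log2 -0.04), with Map1lc3b, an LC3 protein (log2 -0.77 ± 0.11), and Atg12 (log2 -0.67 ± 0.07), both of the conjugation system that directs these GTPases to vacuoles, falling along with Arih2 (log2 -0.68 ± 0.11).

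Genes of other kinds beside the members did not follow a common direction. Of 13 tested genes within 100 kb of a member, 3 rose, 4 fell and 6 did not pass. Over all tested genes 26.7% were higher and 26.1% lower, so these counts are near the background. On chromosome 5 the single neighbour, Abcg3, fell (log2 -0.27 ± 0.06), as Gbp4, Gbp8 and Gbp9 did. The non-member genes whose profile over the 6 libraries was most like the members' mean profile were Ube2q1, Anxa6, Ctnna1, Clcn4-2 and Ppfia1, with root mean square differences of 0.015 to 0.018 on the log2 CPM scale among 9997 genes. Of the members, Irgm1 lay nearest that mean (0.047) and Iigp1 farthest (0.449), with 402 and 9532 non-members nearer, respectively.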

How the data were processed

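The deposited file is 1 table in which the authors give raw counts for each gene symbol. Per the submitters' processing notes, FastQC, STAR 2.5.2, HTSeq 0.6.1, DESeq2 1.12, Cufflinks and mm10 were used, with no roles given. Sources used here give no strand setting, annotation or rule for multi-mapping reads, so paralogs and overlapping genes are uncertain. In 27 rows the symbol had become a date (0.241% of counts); these stayed in totals.

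Counts were fitted with edgeR 4.0.16 in R 4.3.3: TMM factors (0.949 to 1.03), filterByExpr (14209 genes), a quasi-likelihood F test for KO over wild type, Benjamini-Hochberg adjustment over all tested genes, threshold 0.05. SEs are the log2 fold change divided by the root of F. The procedure was tested on simulated data in which 200 genes were changed, far fewer than the 7513 called in these data. That test cannot show how the scaling behaves when so many genes differ. Per-length levels used merged GENCODE M21 exons. The rule for naming took all members, Ifng, any tested gene of the family and signalling lists, and the 3 largest called changes of other lists; genes most like the members needed at least 5 CPM. 1 gene of the signalling list is not reported here. Members and lists were chosen with earlier results of these data known. Libraries within a group differed by more than sampling noise. Chi-square per gene was 2.43 between wild-type replicates 2 and 3 and 3.17 to 5.76 between KO libraries. Wild-type replicate 1 stood farther off, at 11.2 against replicate 2 and 12.5 against replicate 3. The scalings of the summed levels were added after seeing the data. Alternatives were other scalings, filters and thresholds, DESeq2 1.42.0, limma-voom (limma 3.58.1), a replicate block and each library left out.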

Additional observations from a re-analysis of the deposited data

How the results depend on the processing

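Ifng, Gbp4, Gbp7, Iigp1 and Irf1 kept direction and call in all 14 alternatives, with log2 ranges of 1.93 to 2.34, -0.35 to -0.24, 0.54 to 0.65, 0.72 to 1.04 and -0.45 to -0.34. Gbp5 and Irgm1 passed in none of the 14. No member changed sign. Calls were lost in 3 alternatives for Gbp2, 2 for Gbp9 and 1 for Gbp3. Calls were gained in 7 for Irgm2 and 1 for Igtp. With library totals alone 5 members were higher and 1 lower, and at an adjusted p under 0.01 2 were higher and 1 lower. Leaving out 1 library at a time gave 2 to 4 members higher, 2 or 3 lower, and 5985 to 7534 genes called over the table, against 7513. The members' median stayed between 0.04 and 0.15 (log2) in every alternative.

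Replicate numbers are shared by the genotypes, but same-numbered libraries deviated together only in part (correlations of 0.174, 0.125 and 0.011), so they were not treated as pairs. With the replicate block 7900 genes were called, and 4 members were higher and 3 lower. Every library correlated best with its own number except wild-type replicate 3, which correlated best with KO replicate 2 (0.105). Each member had at least 116 counts per library, while Gbp2b and 3 other family genes were too sparse to be tested.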
